A study of Mus musculus with 12 samples.

Results

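The genes described here are the 7 that encode the Fraser complex of epithelial basement membranes and its closest partners, *Fras1*, *Frem1*, *Frem2*, *Frem3*, *Grip1*, *Npnt* and *Itga8*, out of 55536 genes in the tables. They were taken by gene name, and each name matched 1 row. The set was chosen by the difference in counts between affected and unaffected thyroids, which was already known. Values of the 7 genes in those groups are therefore given as a description, without a test.

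RNA was sequenced from 12 mouse thyroids, with 1 library per mouse. The 5 affected mice had the thyroid dysplasia phenotype and were C57BL/6NTac (B6NTac). That colony is where the study found a LINE-1 element, a mobile repeat, in an intron of the thyroglobulin gene *Tg*. The 7 unaffected mice had the wild type phenotype. They were 6 C57BL/6NCrl (B6NCrl) mice from another supplier and 1 B6NTac mouse (replicate 14), which the methods call a KO animal without naming the gene. No mouse is labelled as treated. The study describes affected mice as carriers of the LINE-1. Whether each mouse had 1 or 2 copies, its age and its sex are not given in the sources used here. Colony and phenotype split the mice in the same way except for replicate 14, so they cannot otherwise be told apart. Replicate numbers are those in the sample titles, and the mice count as separate animals.

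FRAS1, FREM1 and FREM2 are large extracellular proteins that assemble with one another beneath epithelia, and loss of any of them destabilizes the others at the basement membrane. In mice and people this loss gives the blistering, fused digits and absent kidneys of Fraser syndrome and related disorders. GRIP1 is a scaffold protein that carries FRAS1 and FREM2 to the basal cell surface. Nephronectin, encoded by *Npnt*, is held in the basement membrane with the help of the complex and is the ligand of the integrin whose alpha 8 chain is made from *Itga8* in mesenchymal cells. In the thyroid, each follicle is a sac of epithelial cells that rests on such a membrane.

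Libraries held between 11434901 counts, in unaffected replicate 14, and 23319948. Levels are CPM, counts scaled to the library total, after TMM, a method that sets libraries to a common level from the bulk of genes. *Tg* took 10.7% to 24.3% of the counts in affected mice and 21.6% to 29.6% in unaffected mice, with *Tg* being the main secreted protein of follicular cells. Tissue around the follicles differed between mice. The sum of 3 parathyroid markers was 1807 to 4317 CPM in 11 mice but 29.5 CPM in affected replicate 4, where *Gcm2* was at 0 and parathyroid hormone, *Pth*, was at 0.723 CPM. The sum of 5 smooth muscle and pericyte markers was 1039 CPM in affected replicate 1 and 623 CPM in unaffected replicate 22, against 308 to 521 CPM in the other mice. In bulk tissue, fewer cells of a type and less RNA per cell cannot be told apart.

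Of the 7 genes, 6 passed the filter on low counts and *Frem3* did not. In the fit of affected against unaffected mice over 19661 genes (edgeR's quasi-likelihood test, adjusted p under 0.05), 2 of the 6 were called, both lower in affected mice. Over all genes tested, 13.7% were called, 6.1% lower and 7.63% higher. The same 2 genes had no overlap between the groups, which held for 7.14% of all genes, 3.36% lower and 3.78% higher in affected mice. Since this difference was used to choose the genes, nothing is read from these counts. The median log2 fold change was -0.40 for the 6 genes and 0.01 for all genes tested.

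*Fras1* (ENSMUSG00000034687, plus strand of chr5:96373955-96784728, GRCm38) encodes the founding member of the complex. Its level was 6.56, 10.6, 16.7, 8.34 and 7.01 CPM in affected replicates 1, 3, 4, 5 and 6. In the 7 unaffected mice the lowest, median and highest levels were 45.1, 56.6 and 66.8 CPM. Every affected mouse thus lay far below every unaffected mouse, with affected replicate 4 the closest. The group means were 9.83 ± 4.14 CPM (SD, n = 5) and 57.8 ± 7.55 CPM (SD, n = 7). Affected mice were thus 5.89-fold lower, with the log2 fold change at -2.56 (standard error 0.22). Of the 19661 genes, 19 including *Fras1* had a log2 fold change this low. The unaffected B6NTac mouse had 60.3 CPM, within the 45.1 to 66.8 CPM of the B6NCrl mice.

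*Frem2* (ENSMUSG00000037016, minus strand of chr3:53513938-53657355) encodes the other large subunit, which spans the cell membrane as FRAS1 does. It was at 16.9, 16.5, 19.9, 20.9 and 14.5 CPM in affected replicates 1, 3, 4, 5 and 6. In unaffected mice its lowest, median and highest levels were 49.4, 55.3 and 60.4 CPM. The groups again did not overlap, and the spread within each was narrow. The means were 17.7 ± 2.62 CPM (SD, n = 5) and 55.3 ± 4.00 CPM (SD, n = 7), or 3.12-fold lower, which is -1.64 on the log2 scale (standard error 0.10). The unaffected B6NTac mouse, at 51.3 CPM, was within the B6NCrl range of 49.4 to 60.4 CPM.

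**Figure D1:**
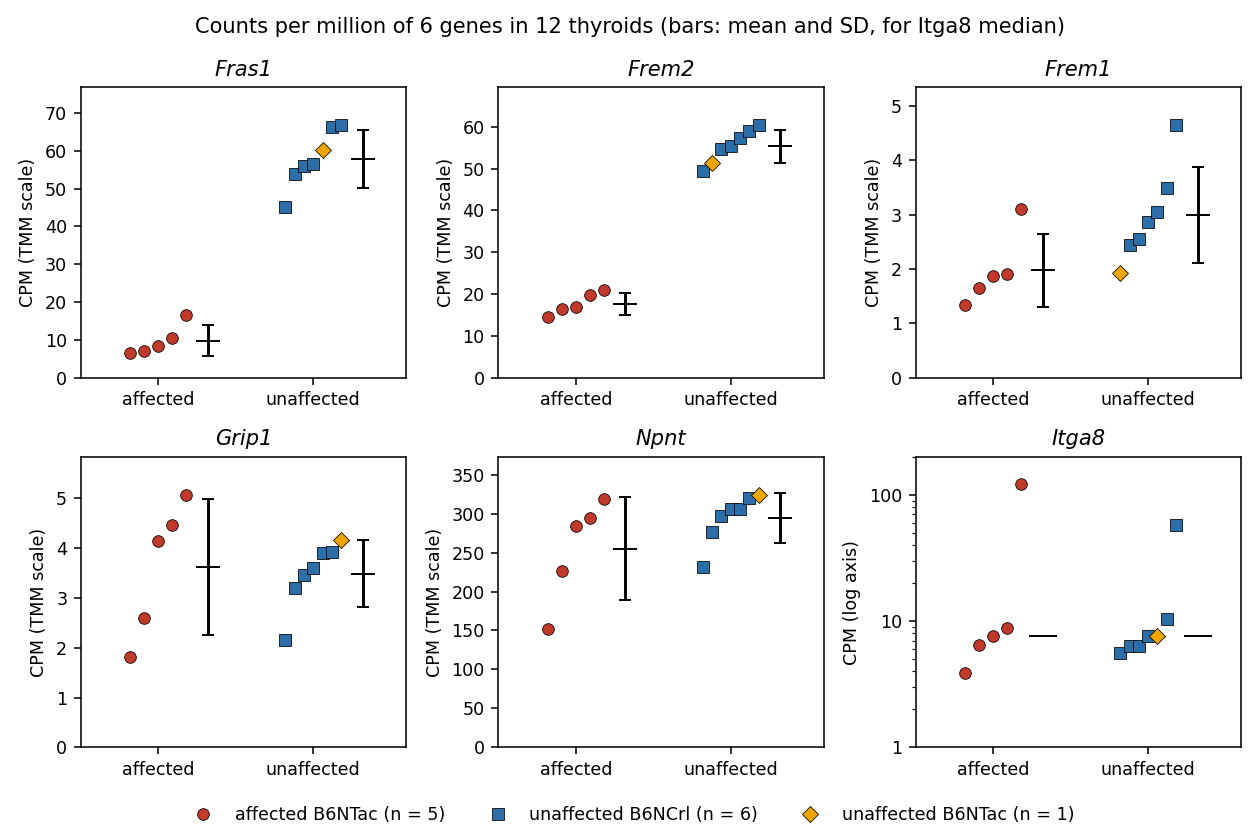
CPM of 6 genes in each of 12 thyroids, with 1 point per mouse ordered by level, shaped by colony. Bars beside the points are the mean and SD of the group on a linear axis, except for *Itga8*, drawn on a log axis with the group median. The 5 affected mice lie at 6.56 to 16.7 CPM of *Fras1* and 14.5 to 20.9 CPM of *Frem2*, below all unaffected mice, while the groups overlap for the other 4 genes.

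*Fras1* and *Frem2* were not lowered in the same proportion. FPKM values, which divide by transcript length and so allow levels of different genes to be compared, were near each other in unaffected mice. Mean FPKM was 4.74 ± 0.580 for *Fras1* and 5.28 ± 0.479 for *Frem2* (SD, n = 7). In affected mice it was 0.768 ± 0.284 and 1.69 ± 0.359 (SD, n = 5). The ratio of *Fras1* to *Frem2* was 0.452 ± 0.112 in affected mice, with a range of 0.336 to 0.577, and 0.899 ± 0.0937 in unaffected mice, with a range of 0.724 to 0.999. The ranges of this ratio did not overlap. It is built from the values that chose the genes, and no test was made.

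The level of both genes was also set against 4 transcription factors of the follicular cell, *Pax8*, *Nkx2-1*, *Foxe1* and *Hhex*, which together mark how much follicular RNA a library holds. These 4 were taken out of a list of 13 follicular markers after their values were seen. Their summed level was 342 to 810 CPM in affected mice and 709 to 988 CPM in unaffected mice, so that the ranges met. Per 100 CPM of these factors, *Fras1* was at 1.87 ± 0.301 CPM (SD, n = 5) in affected mice and 6.99 ± 0.838 CPM (SD, n = 7) in unaffected mice. For *Frem2* the values were 3.60 ± 0.919 and 6.71 ± 0.731 CPM. Neither pair of ranges overlapped. Affected replicate 4 had the highest sum of factors of the affected mice, 810 CPM, and the highest *Fras1*. Its *Fras1* per 100 CPM of factors, 2.06 CPM, lay within the 1.35 to 2.09 CPM of the group. *Pax8* itself fell in affected mice (log2 fold change -0.81, edgeR adjusted p = 0.016).

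**Figure D2:**
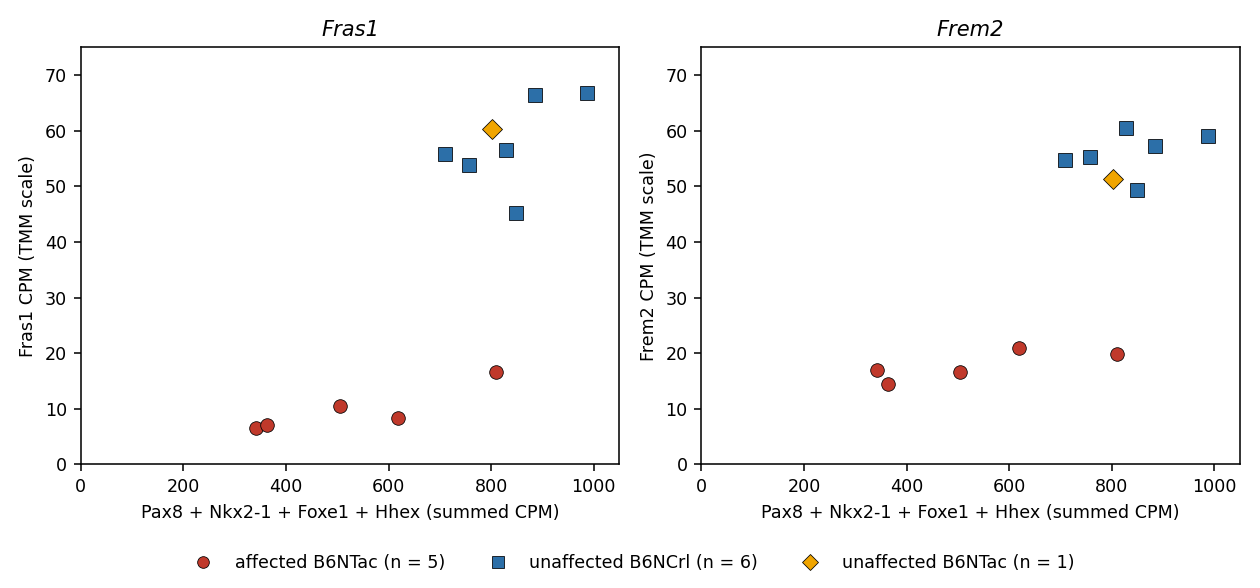
CPM of *Fras1* (left) and *Frem2* (right) against the summed CPM of *Pax8*, *Nkx2-1*, *Foxe1* and *Hhex*, with 1 point per mouse on linear axes from 0. At sums of 709 to 810 CPM, where both groups are present, the affected mouse has 16.7 CPM of *Fras1* and 19.9 CPM of *Frem2*, below the unaffected mice.

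*Frem1* (ENSMUSG00000059049, minus strand of chr4:82897920-83052339) encodes the secreted subunit. Its level was low, with 23 to 95 counts per mouse. It was 3.11, 1.87, 1.91, 1.34 and 1.65 CPM in affected replicates 1, 3, 4, 5 and 6, and in unaffected mice the lowest, median and highest were 1.92, 2.86 and 4.65 CPM. The groups overlapped through affected replicate 1 only. The lowest unaffected mouse, at 1.92 CPM, was the B6NTac mouse, just above affected replicate 4 at 1.91 CPM. The log2 fold change was -0.60 (standard error 0.24). In the B6NTac mouse 23 counts give an exact 95% Poisson interval of 1.22 to 2.88 CPM, which reaches into both groups. Such intervals cover counting error only.

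*Frem3* (ENSMUSG00000042353, plus strand of chr8:80611080-80695356) encodes a relative of *Frem1* and *Frem2*. It was barely detected, with 5 counts summed over the 5 affected mice and 5 over the 7 unaffected mice. No mouse had more than 3 counts, and 1 affected and 4 unaffected mice had 0. With the limit for a count of 0 set at 3 counts, the 5 mice at 0 could hold up to 0.131 to 0.250 CPM depending on the library. A difference in *Frem3* was not detectable at this depth.

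*Grip1* (ENSMUSG00000034813, plus strand of chr10:119453830-120087261) was measured at 35 to 116 counts per mouse. It was at 5.08, 4.47, 1.81, 2.59 and 4.14 CPM in affected replicates 1, 3, 4, 5 and 6. In unaffected mice the lowest, median and highest levels were 2.15, 3.61 and 4.17 CPM. Affected mice lay on both sides of the unaffected range. The log2 fold change was 0.06 (standard error 0.24), and it turned to -0.09 when libraries were scaled by totals without *Tg*, a scaling that moved the median of all genes to -0.13.

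*Npnt* (ENSMUSG00000040998, minus strand of chr3:132881745-132950291) had the highest level of the 7 genes per unit of length, at 69.9 FPKM (range 57.5 to 79.5) in unaffected mice. Its counts gave 294, 319, 152, 227 and 284 CPM in affected replicates 1, 3, 4, 5 and 6. The lowest, median and highest levels in unaffected mice were 232, 306 and 324 CPM. The groups overlapped, and affected replicate 4 lay well below all other mice. The means were 255 ± 66.7 CPM (SD, n = 5) and 294 ± 31.8 CPM (SD, n = 7), which put the log2 fold change at -0.21 (standard error 0.16). Without affected replicate 4 it was -0.05.

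The 3 mice with the lowest *Npnt* were affected replicate 4 (152 CPM), affected replicate 5 (227 CPM) and unaffected replicate 21 (232 CPM). These were also the 3 mice with the lowest sum of parathyroid markers, at 29.5, 1937 and 1807 CPM, and the 3 with the lowest *Grip1*, at 1.81, 2.59 and 2.15 CPM. The same 3 had the lowest sum of C cell markers, at 1369, 3005 and 2529 CPM, a list that holds *Chga*, which parathyroid cells express too. In affected replicate 4, the level of *Npnt* was still 152 CPM with *Pth* at 0.723 CPM. The part that parathyroid tissue or C cells had in the levels of *Npnt* and *Grip1* was not tested. Among 15175 genes with a mean of at least 1 log2 CPM, those whose log2 CPM over the 12 mice was most like that of *Npnt* were *Vdr* (Pearson r = 0.98), *Kif13b*, *Sytl4*, *P3h2* and *Fam222a*. *Vdr* encodes the vitamin D receptor and *P3h2* an enzyme that hydroxylates basement membrane collagen. These correlations share the same libraries, in which affected replicate 4 lies farthest out.

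*Itga8* (ENSMUSG00000026768, minus strand of chr2:12106632-12301922) encodes the alpha 8 chain of the nephronectin receptor, known from mesenchyme and smooth muscle. It was at 123, 6.47, 8.83, 7.65 and 3.86 CPM in affected replicates 1, 3, 4, 5 and 6. In unaffected replicates 14 and 21 to 26 it was at 7.68, 6.31, 57.8, 10.3, 6.30, 5.56 and 7.63 CPM. One mouse in each group was far above all others, and the group medians were almost the same, 7.65 and 7.63 CPM. The log2 fold change of 1.04 (standard error 0.98) rested on those mice, since it was -1.14 without affected replicate 1, 2.03 without unaffected replicate 22 and -0.12 (standard error 0.23) without both.

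The 2 mice with high *Itga8* were the 2 with the highest sum of smooth muscle and pericyte markers, 1039 and 623 CPM. *Myh11*, the smooth muscle myosin heavy chain, was at 362 CPM in affected replicate 1 and 199 CPM in unaffected replicate 22, and *Acta2*, smooth muscle actin, at 298 and 118 CPM. The next mouse by both markers was unaffected replicate 23, with *Myh11* at 140 CPM and *Acta2* at 68.2 CPM, and it had the third highest *Itga8*, 10.3 CPM. The genes most like *Itga8* over the 12 mice were *Tagln* (Pearson r = 0.95), *Gata6*, *Fblim1*, *Adcy5* and *Myh11*, which was looked up after the values were seen. *Tagln* and *Myh11* are in the marker list. The same 2 mice lie far out in *Itga8*, and all these correlations share them. The part of smooth muscle tissue in the level of *Itga8* was not tested.

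**Figure D3:**
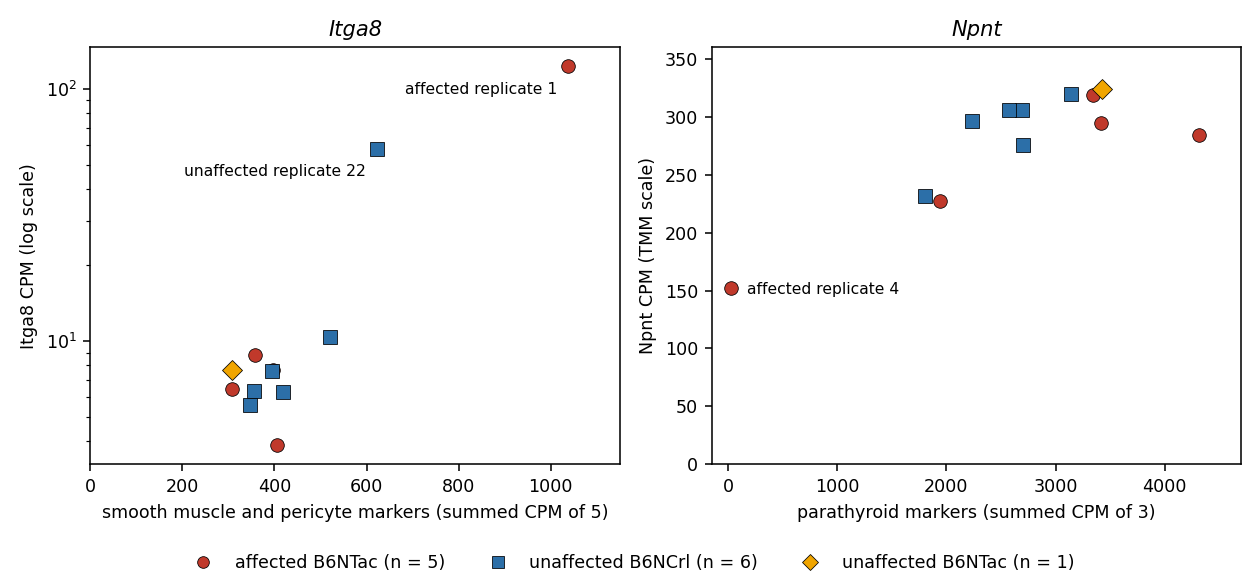
Left, *Itga8* CPM (log axis) against the summed CPM of 5 smooth muscle and pericyte markers. Right, *Npnt* CPM against the summed CPM of 3 parathyroid markers on linear axes, with 1 point per mouse in both. Affected replicate 1 (123 CPM) and unaffected replicate 22 (57.8 CPM) stand apart on the left, and affected replicate 4, with 29.5 CPM of parathyroid markers and 152 CPM of *Npnt*, on the right.

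Ordered by FPKM in unaffected mice, *Npnt* at 69.9 was followed by *Frem2* (5.28), *Fras1* (4.74), *Itga8* (2.81), *Grip1* (0.788), *Frem1* (0.541) and *Frem3* (0.0054). The ranges of *Frem2* and *Fras1*, of *Fras1* and *Itga8*, and of *Grip1* and *Frem1* overlapped between mice. Within each of the 7 unaffected mice the *Fras1* value was below that of *Frem2*, at a ratio of 0.724 to 0.999. In unaffected replicate 24 the values were almost equal, at 5.213 and 5.216 FPKM, so the order of the 2 genes is not settled in every mouse. The mean of *Itga8* was raised by unaffected replicate 22, at 10.3 FPKM against a group median of 1.59. In affected mice *Fras1* at 0.768 FPKM (range 0.546 to 1.23) lay level with *Grip1* at 0.777 FPKM (range 0.349 to 1.24).

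Promoter sequence, 250 bases before to 50 after a transcription start, is given for 3 of the genes, *Frem2* as one of the lower pair and *Itga8* and *Npnt* as genes whose level in single mice went with markers of other tissue. The windows are from RefSeq on GRCm38.p6, which gave 10 windows for 6 of the 7 genes, all but *Fras1*. The 3 shown are on the minus strand and are read 5′ to 3′ in the direction of transcription. Capitals mark matches on either strand to any of 5 short motifs. The E box is CANNTG, which basic helix-loop-helix factors read. The GC box, read by factors such as SP1, is GGGCGG. The core promoter element near many start sites is TATAAA. The core read by NKX2 factors is CAAGTG, which is itself an E box. The CArG box, searched as CC, 6 letters of A or T and GG, is known from smooth muscle genes.

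*Frem2*, chr3:53657306-53657605: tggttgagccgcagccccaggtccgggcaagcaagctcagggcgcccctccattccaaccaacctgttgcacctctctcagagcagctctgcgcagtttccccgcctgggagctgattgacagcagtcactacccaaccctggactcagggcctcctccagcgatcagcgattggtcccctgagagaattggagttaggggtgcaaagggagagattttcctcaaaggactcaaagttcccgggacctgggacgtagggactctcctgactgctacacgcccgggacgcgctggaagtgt

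*Itga8*, chr2:12301895-12302194: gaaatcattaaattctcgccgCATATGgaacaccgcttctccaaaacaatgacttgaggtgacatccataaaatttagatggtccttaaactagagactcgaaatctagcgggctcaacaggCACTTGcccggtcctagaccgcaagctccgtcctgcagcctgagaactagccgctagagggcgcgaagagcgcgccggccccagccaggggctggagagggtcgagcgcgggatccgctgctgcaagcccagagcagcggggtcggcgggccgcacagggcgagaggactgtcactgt

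*Npnt*, chr3:132950242-132950541: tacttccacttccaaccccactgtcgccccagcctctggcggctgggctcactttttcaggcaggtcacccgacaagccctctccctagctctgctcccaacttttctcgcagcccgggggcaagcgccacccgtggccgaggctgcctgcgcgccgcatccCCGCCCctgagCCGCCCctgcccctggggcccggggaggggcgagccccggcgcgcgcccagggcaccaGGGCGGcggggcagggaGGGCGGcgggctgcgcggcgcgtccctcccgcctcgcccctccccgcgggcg

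The *Frem2* window held none of these motifs. The *Itga8* window held 2 E boxes, of which 1 is also an NKX2 core, and no CArG box. The *Npnt* window shown held 4 GC boxes, and the other *Npnt* window, at chr3:132949765-132950064, held 0 GC boxes and 3 E boxes. Of 32851 RefSeq promoter windows of this length, 72.3% held an E box, 35.7% a GC box, 13.6% the element TATAAA, 13.6% an NKX2 core and 1.63% a CArG box. A match is a description of the letters in the window and marks no binding site.

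The transcript length behind each FPKM value was recovered by dividing the count by FPKM and library total, to see which annotated transcripts were counted. For 2186 genes with a single transcript it equalled the annotated length to within 0.99995 to 1.00005 in every mouse. For *Fras1* it averaged 12569 ± 884 bp in the 5 affected and 12223 ± 519 bp in the 7 unaffected mice (SD), where its only protein-coding transcript has 15848 nucleotides and 74 exons. *Frem2* gave 8855 to 11422 bp in affected and 9896 to 10883 bp in unaffected mice, with 12348 nucleotides and 24 exons in its protein-coding transcript. Lengths of both groups overlapped for all 6 genes measured. 

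**Figure D4:**
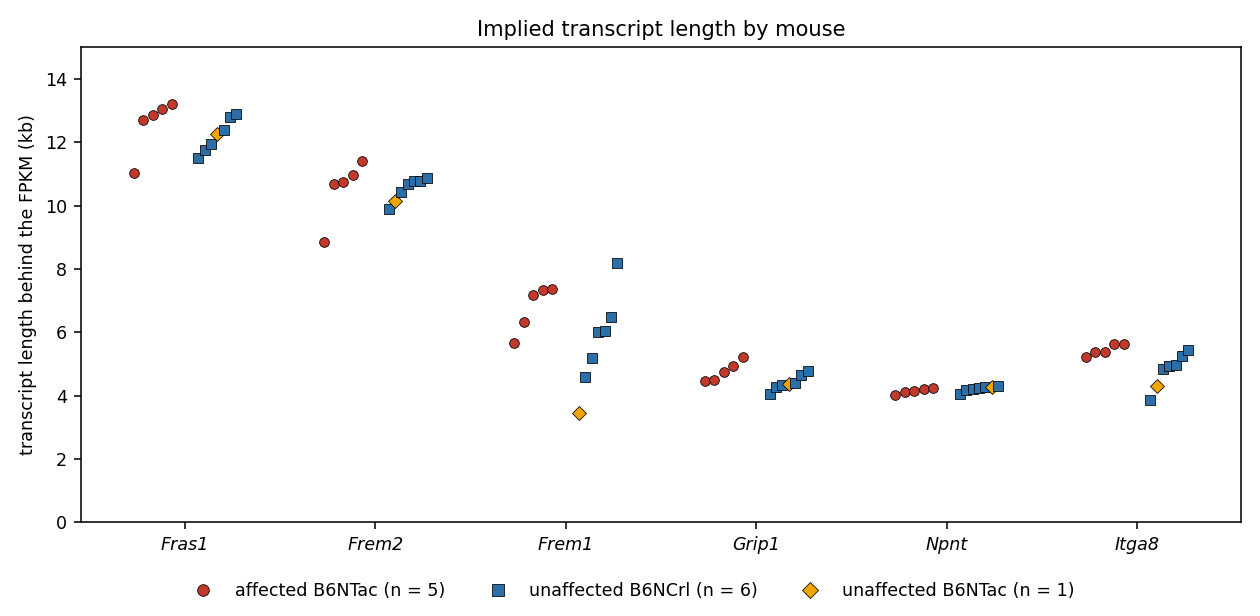
Transcript length in kilobases implied by the count, FPKM and library total for 6 genes, with 1 point per mouse, affected mice on the left of each gene. *Fras1* spans 11025 to 13203 bp in affected and 11503 to 12897 bp in unaffected mice, and the groups overlap for every gene shown.

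Counts of some of these genes can hold reads of a neighbour. The table marks *Fras1*, *Grip1*, *Npnt* and *Itga8* as confounded, a mark given to genes that lie over another annotated gene, and whether the counting used strand is not stated. Exons of *Fras1* share 159 bases, 0.898% of its exon length, with the antisense gene *Gm42604*. Those of *Itga8* share 372 bases, 5.05%, with the antisense gene *E030013I19Rik*, while *Grip1* and *Npnt* share 0 exon bases. The 4 tested genes that start within 500 kb of *Fras1* on chromosome 5 had log2 fold changes of -0.22 for the chemokine *Cxcl13*, -0.04 for *Cnot6l*, -0.04 for *Mrpl1* and 0.35 for *Anxa3*, with adjusted p from 0.105 to 0.825 in edgeR's quasi-likelihood test. Of these 4, 1 had an unadjusted p under 0.05 and DESeq2 called 0.

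Among the 15175 genes, the pattern of *Fras1* over the 12 mice was most like those of *Nt5dc2* (Pearson r = 0.99), *Egfl6* (r = 0.99), *Pitpnm3*, *Snx31* and *Slc4a5*, and *Frem2* ranked 13 (r = 0.98). For *Npnt*, *Grip1* and *Itga8*, r with *Fras1* was 0.25, -0.12 and -0.17. Any gene that separates the 2 groups scores high on this measure. *Egfl6* encodes a small basement membrane protein related to nephronectin that also binds the alpha 8 integrin. *Slc4a5*, a bicarbonate transporter, was the most abundant of the 5, with means of 150 CPM in affected and 510 CPM in unaffected mice.

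The wider setting of the complex was read from 85 genes in 5 lists, of which 84 were tested. In affected mice 17 rose, 12 fell and 55 did not pass the threshold, with a median log2 fold change of 0.24 (edgeR's quasi-likelihood test, adjusted p under 0.05). This is 34.5% called against 13.7% of all genes. The lists were chosen with earlier results of these data known, so this share is a description and no excess is read from it. The split depended on scaling, since with library totals without *Tg* 6 rose and 14 fell, against 608 and 1711 of all genes where the fit above gave 1500 and 1199. The count of 29 was 17, 14 and 17 without affected replicates 1, 3 and 5, and 16, 18 and 14 without unaffected replicates 24, 25 and 26. In the same fits the 2699 called over all genes became 2450, 1874 and 1774, and 1975, 2105 and 1962. The 12 that fell became 4 without affected replicate 1 or 3, and 6 without affected replicate 5 or 6 or unaffected replicate 25. They became 7 without unaffected replicate 22, and 5 without unaffected replicate 24 or 26. Over all genes, the 1199 that fell became 1022, 775, 772 and 1056 without affected replicates 1, 3, 5 and 6. Without unaffected replicates 22, 24, 25 and 26 the count over all genes was 1047, 746, 838 and 860. The 17 that rose became 10 and 11 without affected replicates 3 and 5, 11 without unaffected replicate 14 or 24, and 9 without unaffected replicate 26. Over all genes, the 1500 that rose became 1099 and 1002 without affected replicates 3 and 5. Without unaffected replicates 14, 24 and 26 they became 1196, 1229 and 1102. Of the 29 genes, 8 passed in every one of 23 alternative fits.

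Of 13 genes whose products bind, process or resemble the complex, 2 rose, 1 fell and 10 did not pass. Of the 13, 8 had an unadjusted edgeR p under 0.05 and DESeq2 called 6. *Vwa2*, whose product binds FRAS1 at the basement membrane, fell (log2 fold change -0.97, edgeR adjusted p = 0.044) from 3.98 ± 0.924 to 2.02 ± 0.967 CPM. It passed in only 8 of 23 alternative fits. The fibulin gene *Fbln2* rose (log2 fold change 0.70) and passed in all 23, and *Pdgfra*, a growth factor receptor, rose by 0.38 and passed in 8.

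Of 14 tested genes around the alpha 8 integrin, its ligands and the GDNF pathway, 5 rose, 3 fell and 6 did not pass. Their median log2 fold change was 0.27. Of the 14, 9 had an unadjusted edgeR p under 0.05 and DESeq2 called 8. *Egfl6* fell without overlap between the groups, from 22.1 ± 4.06 CPM (SD, n = 7) in unaffected to 5.15 ± 2.07 CPM (SD, n = 5) in affected mice. On the log2 scale it changed by -2.10 ± 0.22 (standard error), with adjusted p = 0.000155 by edgeR. *Fn1*, encoding fibronectin, another ligand of this integrin, rose from 118 ± 20.2 to 244 ± 81.2 CPM, also without overlap (log2 fold change 1.04, adjusted p = 0.00493 from the same test). Both passed in all 23 alternative fits. *Itgb1*, the beta chain that pairs with alpha 8, rose by 0.28 on the log2 scale without overlap. *Tnc* (0.81), *Itga5* (0.78) and the GDNF coreceptor *Gfra1* (1.33) rose, while *Itgb8* (-0.59) and *Ret* (-0.80), the kinase of the GDNF pathway, fell. *Itgb1*, *Tnc*, *Itga5* and *Gfra1* passed in 19, 9, 5 and 17 of the 23 fits, and *Itgb8* and *Ret* in 18 and 10.

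Of 14 genes that anchor epithelial cells, 4 rose and 10 did not pass. Of the 14, 7 had an unadjusted edgeR p under 0.05 and DESeq2 called 6. The hemidesmosome collagen *Col17a1* rose most, from 1.34 ± 0.567 to 4.85 ± 4.02 CPM (log2 fold change 1.85), with a wide spread in affected mice, and passed in 17 of 23 fits. *Itga3* (0.70), *Itgb4* (0.40) and *Cd151* (0.30), parts of laminin receptors, passed in 9, 11 and 12. Of 14 matrix proteases tested 2 rose, *Adamts1* (0.85) in 6 and *Adamts5* (0.53) in 15 of the fits, and 12 did not pass. Of these 14, 4 had an unadjusted edgeR p under 0.05 and DESeq2 called 3.

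Of 29 structural basement membrane genes, 4 rose, 8 fell and 17 did not pass, with a median log2 fold change of 0.07. Of the 29, 19 had an unadjusted edgeR p under 0.05 and DESeq2 called 15. *Col4a3* and *Col4a4*, chains of one type of collagen IV network, fell by 1.23 and 1.02 on the log2 scale without overlap (edgeR adjusted p = 0.000285 and 0.00101), and passed in all 23 alternative fits. The other genes that fell were *Lamb1* (-0.60), *Nid2* (-0.51), *Col15a1* (-0.46), *Col4a5* (-0.40), *Col4a6* (-0.39) and *Agrn* (-0.38). *Col18a1* (0.71), *Tinagl1* (0.66), *Lamc1* (0.49) and *Pxdn* (0.36) rose, with *Tinagl1* and *Pxdn* each passing in 19 of the fits. The groups did not overlap for *Lamb1*, *Lamc1* and *Pxdn* either, and overlapped for the other genes of this list that passed. *Lamb1*, *Lamc1* and *Col18a1* passed in all 23, *Nid2*, *Col15a1*, *Col4a5*, *Col4a6* and *Agrn* in 11, 15, 16, 9 and 14.

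**Figure D5:**
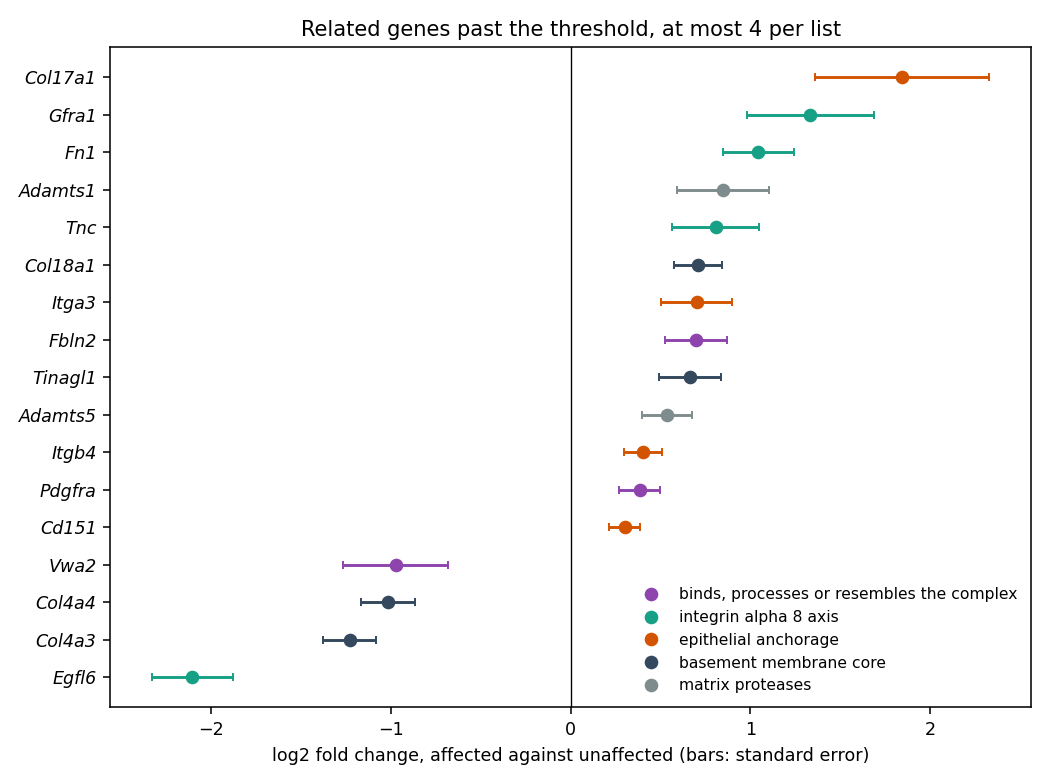
Log2 fold change of affected against unaffected mice with its standard error for the 17 related genes past the threshold, at most 4 per list by size, coloured by list. *Egfl6* at -2.10, *Col4a3* at -1.23 and *Col4a4* at -1.02 lie lowest, and *Col17a1* at 1.85 and *Gfra1* at 1.33 highest.

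Marker lists of the cells a thyroid sample can hold were read in the same fit. Of 13 follicular markers *Pax8* fell, *Slc26a4* rose to 1.64 ± 1.16 CPM (SD, n = 5) from levels near 0, and 11 did not pass. Of these 13, 5 had an unadjusted edgeR p under 0.05 and DESeq2 called 4. Of 8 fibroblast markers *Dcn* (0.58) and *Dpt* (0.74) rose, and of 5 endothelial markers *Kdr* (-0.60) fell. The unadjusted edgeR p was under 0.05 for 3 of the 8 and 3 of the 5, and DESeq2 called 2 and 3. *Pax8* passed in all 23 alternative fits, and *Dcn*, *Dpt* and *Kdr* in 21, 6 and 10. The summed fibroblast markers were 800.2 to 1241 CPM in affected and 619 to 872 CPM in unaffected mice. Among the smooth muscle, parathyroid and C cell lists 0 of 11 tested genes passed in edgeR's quasi-likelihood test, 0 had an unadjusted p under 0.05 and DESeq2 called 0. Among the airway, cartilage and muscle, and leukocyte lists 0 of 12 passed, 3 had an unadjusted p under 0.05 and DESeq2 called 1. The summed leukocyte markers were 279 and 300 CPM in unaffected replicates 14 and 21, 198 CPM in affected replicate 1 and at most 99.7 CPM elsewhere. *Frem1* in these 3 mice was at 1.92, 4.65 and 3.11 CPM. What part other cells had in the related genes was not tested.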

How the data were processed

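Thyroid RNA was sequenced from 12 mice after depletion of ribosomal RNA, and alignment and gene quantitation by the authors used OmicSoft Array Studio on a reference the methods name with Ensembl's annotation. The table's coordinates are those of GRCm38, which was taken from the coordinates and not from the methods. Per gene, the authors deposited estimated counts (unnormalized) and FPKM. Between 81.0% and 84.7% of a mouse's estimated counts were whole, and all were rounded here. Genes were filtered with filterByExpr (minimum count 10), scaled by TMM, and tested with edgeR 4.0.16 in R 4.3.3 (quasi-likelihood, robust, no covariates), affected against unaffected. P-values were Benjamini-Hochberg adjusted over 19661 genes, threshold 0.05. The study's methods name no expression test. Standard errors are the log2 fold change over the square root of F. Fold changes use these counts, and FPKM only compares levels between genes. Positions, exons and transcripts came from GENCODE M21, which has the same coordinates for all 7 genes.

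The 7 genes, the lists and the alternatives were chosen with earlier results of these data known. Named genes of the lists were at most 4 per list with the largest change past the threshold. Others were named after their values were seen, namely *Itgb1*, *Itga5*, *Itgb8*, *Ret* and 8 further basement membrane genes, the 5 genes most like *Itga8*, the markers and the genes near *Fras1*. The motifs and the 4 follicular factors were also picked then. Alternatives were DESeq2 1.42.0, library totals with and without *Tg* and no TMM, no or a stricter count filter, B6NCrl controls only, limma 3.58.1 on FPKM with a pseudocount of 1 or 0.1 (log2 scale, genes averaging at least 0.5 FPKM), limma unfiltered with pseudocount 1, *Xist* as a covariate, and each mouse left out. The fit without both mice with high smooth muscle markers was added after the data had been seen. The edgeR test was checked on simulated counts. No 2 libraries of a group agreed within sampling noise (lowest chi-square per gene 12.0). P-values set the difference between the groups, in which colony and phenotype are mixed, against the spread between single mice.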

Additional observations from a re-analysis of the deposited data

Results flagged for a closer look

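In 42 groups of values, each 1 gene or marker list in affected or in unaffected mice, the highest or lowest mouse was compared with its group by Dixon's criterion, which chance meets in about 1 in 20 groups. It was met 9 times. For *Itga8*, affected replicate 1 at 123 CPM and unaffected replicate 22 at 57.8 CPM stood apart, and the sum of smooth muscle and pericyte markers stood apart in affected replicate 1 at 1039 CPM. The implied transcript length was low for *Fras1* in affected replicate 6, at 11025 bp, and for *Frem2* in affected replicate 4, at 8855 bp. The C cell sum was low in unaffected replicate 21, at 2529 CPM. That list holds *Chga*, which parathyroid cells express too. Airway and squamous markers summed to 206 CPM in affected replicate 3 and 76.0 CPM in unaffected replicate 21, and cartilage and muscle markers to 17005 CPM in affected replicate 6.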

How the results depend on the processing

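The log2 fold changes of *Fras1* and *Frem2* kept their sign in all 23 alternatives. With limma on log2(FPKM + 1), filtered or not, they were -1.71 and -1.23, a scale that understates changes of low genes. With each mouse left out they were -2.81 to -2.45 and -1.71 to -1.57. *Itga8* ranged from -1.14 to 2.03 with a mouse left out. *Frem1* stayed between -0.87 and -0.24, *Npnt* between -0.35 and -0.05, and *Grip1* between -0.11 and 0.24, with the sign of the main value in 15 of 23. The 2699 genes called became 3597 with DESeq2 and 1339 with limma on log2(FPKM + 1) unfiltered. With a mouse left out they were 1774 to 3390, lowest without affected replicate 5. The 29 related genes called became 38 with DESeq2, 18 without a count filter and 12 with limma unfiltered. They were 19 without both mice with high smooth muscle markers, and 14 to 33 with a mouse left out. B6NCrl controls alone are the same fit as leaving out unaffected replicate 14. No paired analysis was possible because the groups share no replicate numbers. Depth limits *Frem3*, *Frem1* and *Grip1*, and 1 unaffected B6NTac mouse cannot separate colony from phenotype.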
